A study of Homo sapiens with 24 samples.

Results

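The 9 genes described here encode parts of the MHC class I antigen presentation machinery (HLA-B, HLA-C, HLA-E, B2M, TAP1, TAPBP and NLRC5) and interferon-induced transmembrane proteins (IFITM1 and IFITM3). They were chosen by symbol from the 60671 genes of each count table, and all 9 were found in both tables. Polyadenylated RNA was sequenced from H1 and H9, human lines derived from embryos, in 24 libraries that form 8 groups of 3. In H1 the groups were primed cells with CARHSP1 knockdown, naive cells with ZNF8 knockdown and day 2 ectoderm with ZIC2 knockdown, each beside a nontargeting control of the same cell state. Every H1 library, controls included, is labelled as treated with doxycycline. In H9 the groups were primed and naive cells, with no genotype or treatment label. The sources used here do not give how the knockdowns were made or whether a line was 1 clone, and the growth protocol names StemFlex medium for all 24 libraries. Nothing in the labels says that replicates came from separate cultures, so p-values measure the spread between these libraries, which may be technical.

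Class I molecules present peptides from inside the cell to cytotoxic T cells. A polymorphic heavy chain such as HLA-B or HLA-C, or the less variable HLA-E that engages receptors of natural killer cells, pairs with the light chain β2-microglobulin (B2M). TAP1 is a subunit of the transporter that carries peptides into the endoplasmic reticulum, tapasin (TAPBP) holds that transporter to the empty class I molecule, and NLRC5 is the transactivator of class I promoters. IFITM proteins sit in cell membranes and restrict virus entry. All of these genes can be induced by interferon, and pluripotent stem cells are known for low class I levels and for IFITM expression without interferon.

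The promoter letters that interferon-responsive and class I regulating factors are known to bind are shown first, because interferon-responsive letters are what most members share at their promoters, while their RNA levels did not move as 1 group. RefSeq windows on GRCh38.p14, from 250 bases before to 50 bases after the start, were given for 7 of the 9 members, all but HLA-E and NLRC5. Stretches are printed 5′ to 3′ on the gene's own strand. Capitals mark every match, on either strand, that lies whole within the stretch. The letters sought were a pair of GAAA with any 2 bases between them (the interferon-stimulated response element, ISRE). A shorter form has GAA before the 2 free bases and GAAA after them (marked where no ISRE was found). Also sought were a κB-like element (GGG, any 2 bases, TT, any base, CC, marked in HLA-B and B2M), TGACG (the core of a cyclic AMP response element) and CCAAT (the CCAAT box). The motifs were picked after these letters had been seen. HLA-B is shown from chr6:31357225-31357362 and HLA-C from chr6:31272138-31272290, both on the minus strand, and B2M from chr15:44711367-44711478 on the plus strand. The other stretches hold the ISRE alone: TAP1 at chr6:32853816-32853845 (minus), TAPBP at chr6:33314076-33314105 (minus), IFITM1 at chr11:314024-314053 (plus) and IFITM3 at chr11:320876-320905 (minus).
HLA-B: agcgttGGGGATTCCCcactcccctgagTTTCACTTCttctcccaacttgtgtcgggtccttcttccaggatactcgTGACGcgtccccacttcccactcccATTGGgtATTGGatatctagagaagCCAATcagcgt
HLA-C: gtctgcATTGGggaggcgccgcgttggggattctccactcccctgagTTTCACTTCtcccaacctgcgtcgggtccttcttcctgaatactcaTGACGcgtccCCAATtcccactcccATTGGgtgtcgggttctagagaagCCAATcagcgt
B2M: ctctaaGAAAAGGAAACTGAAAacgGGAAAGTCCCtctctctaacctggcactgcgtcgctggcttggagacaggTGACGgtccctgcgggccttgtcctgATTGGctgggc
TAP1: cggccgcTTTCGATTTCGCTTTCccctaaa
TAPBP: tttggagGAAAGTGAAAGTGAAAggaggaa
IFITM1: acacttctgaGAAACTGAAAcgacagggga
IFITM3: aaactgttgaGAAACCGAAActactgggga

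The ISRE letters were found in 5 of the 7 windows (B2M, TAP1, TAPBP, IFITM1 and IFITM3), against 3.57% of 35116 RefSeq windows of the same 300 bases. HLA-B and HLA-C held the shorter form, which was found in 7.66% of all windows, as the same 9 letters, TTTCACTTC on the gene's strand. The κB-like letters were found in 4 of 7 members (HLA-B, B2M, TAP1 and TAPBP) and in 5.68% of all windows, and HLA-C had no match to it in its window. TGACG was found in 3 of 7 (24.6% of all windows) and CCAAT in 5 of 7 (34.6%). In B2M, TAP1 and TAPBP pairs of ISRE matches overlap. IFITM1 and IFITM3 each held a further ISRE match, starting 40 and 52 bases before the start, that is not whole in the stretch printed. A match describes the letters and is not a measured binding site. Because the motifs were picked with these windows in view, the shares are a description and no enrichment was tested.

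Library totals ran from 6756704 to 20773963 counts, and the edgeR common biological coefficient of variation of the 6 comparisons was 6.13% to 9.67%. The knocked down gene was lower in the library groups labelled for CARHSP1 (19.5 ± 1.53 against 152 ± 2.44 CPM, SD, n = 3) and ZIC2 (272 ± 4.67 against 566 ± 63.1 CPM). ZNF8 itself was at 15.4 ± 1.39 CPM in its knockdown and 19.1 ± 2.85 CPM in its control, with the groups apart. Its change (log2 −0.32) missed the threshold (edgeR adjusted p = 0.0664), so the knockdown label is not borne out by that gene's RNA at the threshold used. With CARHSP1 knockdown ZNF8 changed by −0.29 (edgeR adjusted p = 0.0379). The labelled states were checked by marker sums. The 8 naive-state genes summed to 355 CPM in naive and 36.9 CPM in primed H1 controls, and to 119 and 25.0 CPM in H9. KLF17 (0.0680 CPM) and ARGFX (0.0296 CPM) of that list were near 0 in naive H9 cells. In naive H1 controls they were at 10.8 and 2.93 CPM. DPPA5 went the other way, at 28.8 CPM in naive H9 cells and 7.66 CPM in naive H1 controls. The 6 primed-state genes summed to 848 CPM in naive and 2710 CPM in primed H1 controls, and to 1617 and 4005 CPM in H9. The 7 neural ectoderm genes summed to 1140 CPM in the ectoderm controls against 42.1 CPM in primed ones. CD74, HLA-DMA and HLA-DRA carried most of a leukocyte and class II list whose summed level was 12.3 to 78.1 CPM in every library. Fewer cells of a type and less RNA per cell cannot be told apart in bulk samples such as these. The members differ in how uniquely reads can be assigned to them: 42.3% of IFITM1's 50-base words also occur in another gene (39.0% in IFITM2), 21.0% of HLA-B's, 20.3% of IFITM3's and 15.2% of TAP1's, against 6.79% for HLA-C, 5.76% for HLA-E and none for B2M, TAPBP and NLRC5. Most of HLA-B's shared words occur in AL671883.2 (18.5%), a pseudogene with group means of at most 0.0268 CPM. Most of TAP1's occur in PSMB8-AS1 (14.2%), and IFITM3 shares 14.4% with IFITM2. Reads of IFITM2 and of IFITM1 or IFITM3, and of HLA-B or TAP1 and the gene named for each, could thus be split by the counting. Its tool and strand setting were not given in the sources used here.

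All positions are those of GENCODE 29 on GRCh38 for the whole gene span. HLA-B (ENSG00000234745) lies at chr6:31269491-31357188 and HLA-C (ENSG00000204525) at chr6:31268749-31272130, both on the minus strand, where the annotated span of HLA-B runs into that of HLA-C. HLA-E (ENSG00000204592) lies at chr6:30489467-30494205 on the plus strand. TAP1 (ENSG00000168394) and TAPBP (ENSG00000231925) lie at chr6:32845209-32853978 and chr6:33299694-33314387 on the minus strand, and TAP1 overlaps PSMB9 and PSMB8-AS1 on the opposite strand. B2M (ENSG00000166710) lies at chr15:44711487-44718877 and NLRC5 (ENSG00000140853) at chr16:56989485-57083531, both on the plus strand. IFITM1 (ENSG00000185885) lies at chr11:313506-315272 on the plus strand, where it overlaps IFITM2, and IFITM3 (ENSG00000142089) at chr11:319669-327537 on the minus strand.

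Levels are given as CPM, a gene's counts relative to the library total, scaled by TMM over all 24 libraries, as replicates 1, 2 and 3. Between genes, levels can be compared only per length. Per kilobase of the principal transcript, the primed H1 controls held 328 ± 5.20 CPM of IFITM3 and 279 ± 15.7 CPM of IFITM1 (SD, n = 3). HLA-C followed with 96.9 ± 6.16 CPM per kilobase, B2M with 53.4 ± 0.481, TAPBP with 32.3 ± 0.954, HLA-B with 28.0 ± 1.34, HLA-E with 18.6 ± 1.71, TAP1 with 7.44 ± 0.750 and NLRC5 with 0.323 ± 0.0641. The IFITM genes were thus the most abundant members per length in these cells and NLRC5 the least.

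Across the 8 groups the members fell into different orders. HLA-B ranged 4.37-fold between its highest and lowest group mean. It was highest in primed H1 controls, at 41.3, 45.4 and 43.4 CPM, and in primed cells with CARHSP1 knockdown, whose 3 libraries overlapped them. Ectoderm with ZIC2 knockdown (36.6, 34.5 and 30.8 CPM) overlapped primed H9 cells (34.9, 29.3 and 32.8 CPM). Below a gap came naive H1 controls (17.2, 15.7 and 16.0 CPM), naive cells with ZNF8 knockdown and ectoderm controls (14.5, 13.9 and 13.6 CPM), each overlapping its neighbour, and then naive H9 cells at 11.1, 9.89 and 8.76 CPM, apart from all others. HLA-C spanned only 1.96-fold. It stood at 159, 158 and 146 CPM in naive H9 cells, and every neighbouring pair of groups overlapped down to naive H1 controls at 104 ± 3.26 CPM, with ectoderm controls alone below, at 75.4, 79.0 and 81.7 CPM. HLA-E spanned 3.40-fold, led by naive H9 cells (104, 106 and 88.5 CPM) and primed H9 cells (69.5, 60.2 and 70.01 CPM), each apart from the next group. The 6 H1 groups of HLA-E ran from 48.5 ± 4.44 CPM in primed controls to 29.3 ± 4.10 CPM with ZNF8 knockdown, each overlapping its neighbour.

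B2M spanned 6.99-fold and had a different shape. Naive H9 cells held 114, 113 and 106 CPM and primed H1 controls 91.9, 91.1 and 90.3 CPM, while naive H1 controls held 22.7, 20.9 and 22.5 CPM and naive cells with ZNF8 knockdown 15.5, 14.7 and 17.5 CPM. The 4 remaining groups lay between 70.7 ± 2.66 CPM (CARHSP1 knockdown) and 84.7 ± 4.92 CPM (ectoderm controls). B2M in the 6 naive H1 libraries was thus below every other library.

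TAP1 had the widest range of the 9, 33.3-fold. Primed H1 controls held 22.5, 19.6 and 23.9 CPM, and primed cells with CARHSP1 knockdown overlapped them. ZIC2 knockdown ectoderm, primed H9 cells, ectoderm controls and naive H9 cells followed with means of 12.7, 11.7, 11.5 and 10.2 CPM. The naive H1 libraries stood apart, at 1.03, 1.14 and 2.15 CPM in controls and 0.720, 0.392 and 0.870 CPM with ZNF8 knockdown. TAPBP spanned 2.55-fold, from 62.5, 61.5 and 59.0 CPM in primed H1 controls to 21.6, 23.6 and 26.6 CPM in naive H1 controls, again with the 2 naive H1 groups lowest. NLRC5 was near the limit of these libraries, with group means from 0.754 CPM in ectoderm controls to 2.57 CPM with ZNF8 knockdown.

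IFITM1 spanned 11.8-fold. It was highest in naive H9 cells (994, 983 and 895 CPM), then naive H1 controls (806 ± 41.7 CPM) and naive cells with ZNF8 knockdown (690 ± 59.6 CPM). Primed H1 controls held 234, 228 and 253 CPM and primed H9 cells 234, 198 and 203 CPM, which overlap. CARHSP1 knockdown (169, 158 and 146 CPM), ectoderm controls (89.5, 111 and 103 CPM) and ZIC2 knockdown (81.7, 78.8 and 84.0 CPM) came last, each apart from the next. IFITM3 spanned 7.42-fold, with naive H9 cells at 793, 842 and 701 CPM, ZNF8 knockdown at 498, 575 and 478 CPM and naive H1 controls at 393, 422 and 432 CPM. It was at 265 ± 4.20 CPM in primed H1 controls, 251 ± 35.3 CPM in primed H9 cells, 171 ± 9.83 CPM with CARHSP1 knockdown, 138 ± 11.2 CPM with ZIC2 knockdown and 105 ± 8.14 CPM in ectoderm controls. Both IFITM genes were highest in naive cells and lowest in ectoderm, where B2M stayed near its primed level.

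**Figure D1:**
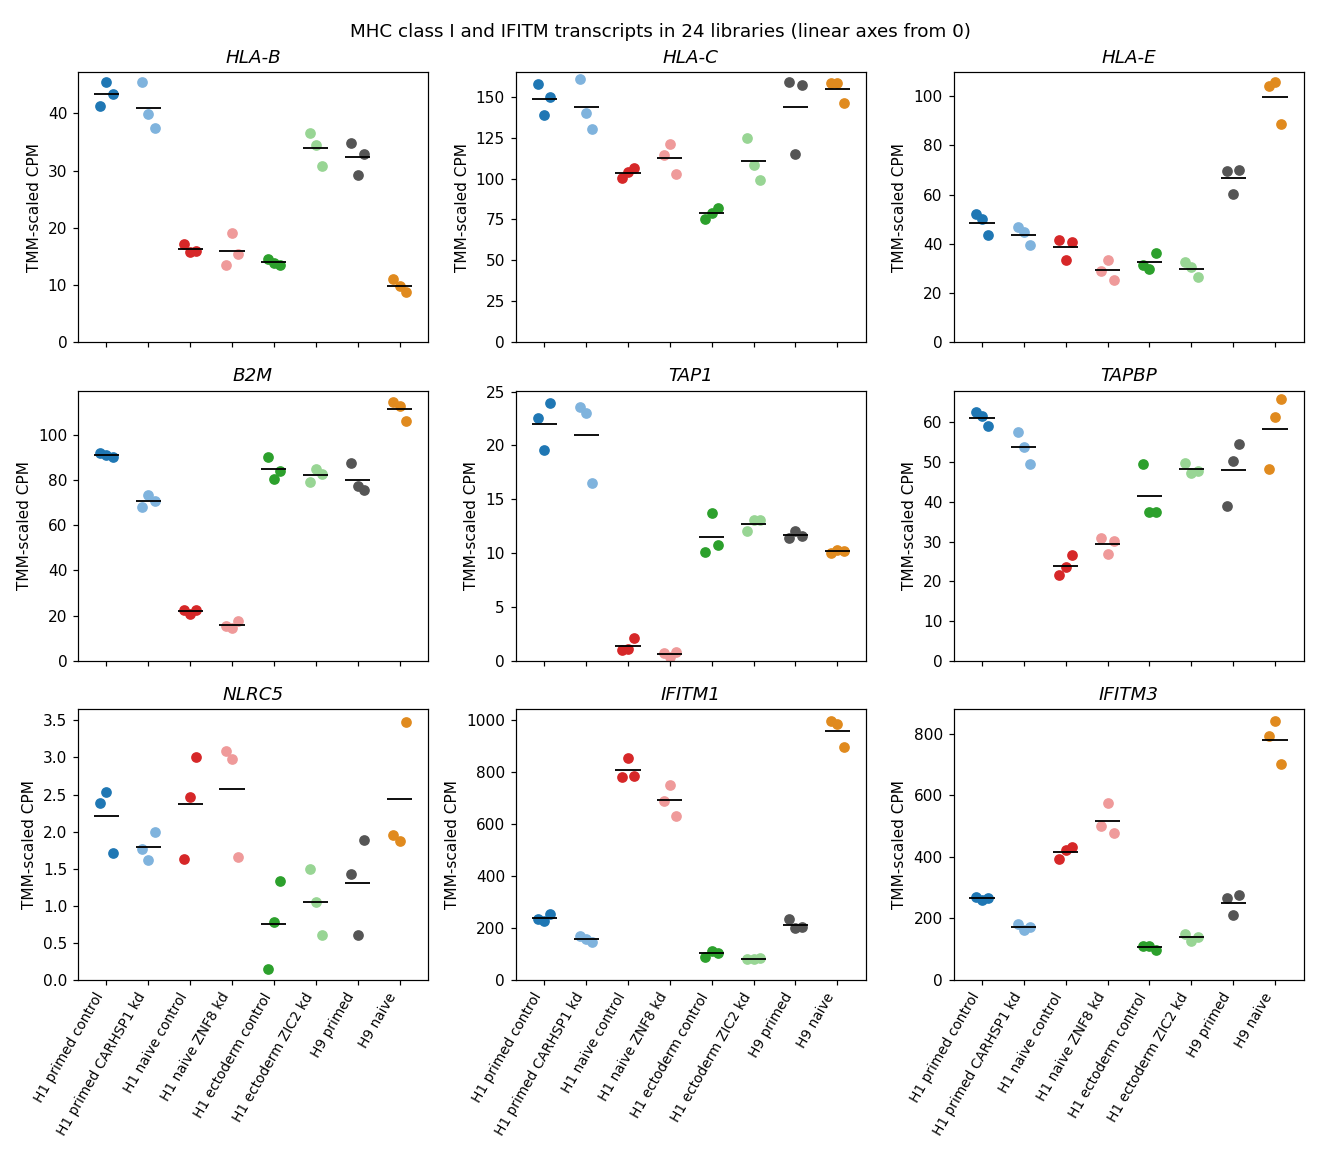
Level of each of the 9 genes in every library (points, CPM scaled by TMM over all 24 libraries, linear axes from 0) by group, with the mean of 3 as a black bar. B2M, TAP1 and TAPBP are lowest in the naive H1 groups, while IFITM1 and IFITM3 are highest in naive cells of both lines.

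The naive and primed states were compared first within each line. Naive cells resemble the epiblast before implantation and primed cells the epiblast after it. Among H1 controls, 2 members were higher in naive cells and 6 lower. Of 15874 tested genes 71.1% passed the threshold (35.0% higher and 36.1% lower), so most genes were called here as well. The median change of the 9 was −0.55 on the log2 scale, against 0.00 for all tested genes. In H9, 4 members were higher and 1 lower, where 51.5% of 15761 tested genes passed (25.4% higher and 26.1% lower), with a member median of 0.46.

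The heavy chains did not move together. HLA-B was lower in naive cells of both lines, 3.28-fold in H9 (log2 −1.71 ± 0.14, SE, edgeR adjusted p = 4.57e-09) and by −1.42 ± 0.11 in H1 controls (edgeR adjusted p = 1.57e-18), and its 3 naive libraries lay below its 3 primed libraries in each line. HLA-C fell in naive H1 cells (−0.55 ± 0.06, edgeR adjusted p = 1.02e-12), while in H9 its change was 0.10 ± 0.11 (edgeR adjusted p = 0.474). HLA-E fell by 0.35 ± 0.09 in naive H1 cells (edgeR adjusted p = 0.000641) and rose by 0.57 ± 0.10 in naive H9 cells (edgeR adjusted p = 8.49e-05). Of the counts of these 3 genes, HLA-B took 18.1% ± 1.49 in primed and 10.3% ± 0.501 in naive H1 controls (SD, n = 3), and 13.4% ± 0.852 in primed and 3.75% ± 0.261 in naive H9 cells, a share that no library scaling can move.

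B2M and TAP1 parted most between the lines. In H1 controls B2M was 4.19-fold lower in naive than in primed cells (log2 −2.07 ± 0.08, edgeR adjusted p = 2.74e-32), and in H9 it was higher in naive cells (0.46 ± 0.09, edgeR adjusted p = 0.000295). TAP1 was 15.9-fold lower in naive H1 controls (log2 −3.99 ± 0.22, edgeR adjusted p = 4.94e-25). In H9 the TAP1 change was −0.21 ± 0.15 (edgeR adjusted p = 0.252), and its naive libraries at 10.03, 10.3 and 10.2 CPM stood just under the primed ones at 11.4, 12.1 and 11.6 CPM. TAPBP fell by 1.37 ± 0.09 in naive H1 controls (edgeR adjusted p = 6.49e-21), while in H9 its change was 0.28 ± 0.13 (edgeR adjusted p = 0.0847, and 0.0184 without the first naive or 0.0328 without the third primed library). NLRC5 changed by 0.08 ± 0.38 in H1 (edgeR adjusted p = 0.859) and by 0.84 ± 0.37 in H9 (edgeR adjusted p = 0.0681, and 0.0277 with GC and length trends removed or 0.0357 without the third primed library).

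The IFITM genes rose in naive cells of both lines. IFITM1 was 3.34-fold higher in naive H1 controls (log2 1.74 ± 0.04, edgeR adjusted p = 4.2e-43) and 4.49-fold higher in naive H9 cells (2.17 ± 0.09, edgeR adjusted p = 2.65e-13). IFITM3 rose by 0.63 ± 0.05 in H1 (edgeR adjusted p = 6.37e-20) and 3.09-fold in H9 (1.63 ± 0.10, edgeR adjusted p = 1.08e-10). IFITM2, a paralog beside them, went the other way in H1 (−0.35, edgeR adjusted p = 1.09e-07) and in H9 changed by −0.01 (edgeR adjusted p = 0.964), a sign that turns under DESeq2's size factors. The number of IFITM1 counts per IFITM3 count was 1.99, 2.02 and 1.82 in naive H1 controls and 1.25, 1.17 and 1.28 in naive H9 cells, while both primed groups lay between 0.735 and 0.950.

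**Figure D2:**
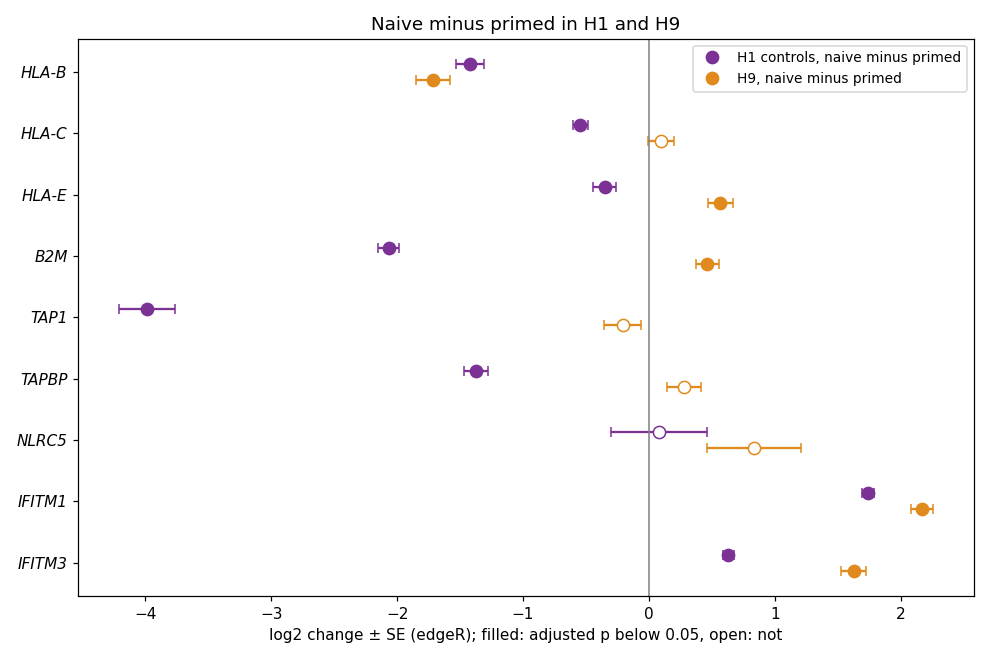
Change of each member between naive and primed cells in H1 controls and in H9 (log2 fold change from edgeR, error bars ± 1 SE; filled points passed the test, open ones did not). B2M, TAP1 and TAPBP fall in naive H1 cells, whereas in naive H9 cells B2M is higher and the other two did not pass the test, and IFITM1 and IFITM3 rise in both lines.

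The difference between the lines was tested directly as an interaction, the H9 change minus the H1 change. It passed the threshold for 7 of the 9 members, each positive, where 49.9% of 17140 genes passed. TAP1 had the largest difference of the members (3.77 ± 0.27, edgeR adjusted p = 7.25e-13), followed by B2M (2.52 ± 0.12, edgeR adjusted p = 2.74e-17) and TAPBP (1.64 ± 0.17, edgeR adjusted p = 1.4e-09). IFITM3, HLA-E, HLA-C and IFITM1 differed by 0.98, 0.91, 0.63 and 0.42. HLA-B (−0.30 ± 0.17, edgeR adjusted p = 0.148) and NLRC5 (0.75 ± 0.53, edgeR adjusted p = 0.254) did not pass. With GC and length trends removed the HLA-B difference was −0.50 (edgeR adjusted p = 0.00815). Naive cells of the lines differed in the naive-state marker sum, at 355 CPM in H1 controls and 119 CPM in H9. The part of this in the differences was not tested. The lines also differ in count table, in the nontargeting control and in the doxycycline label, and these cannot be told apart from the line. The summed level of 8 trophoblast and amnion markers moved with it, at 107 to 114 CPM in naive and 19.96 to 24.9 CPM in primed H1 controls against 9.77 to 14.9 CPM in naive and 52.2 to 62.1 CPM in primed H9 cells, with none of the 8 at 0 in naive H1 controls and 1 at 0 in each of the other 3 groups. The H9 sum was carried by GABRP (43.9 CPM in primed and 1.24 in naive cells) and KRT7 (12.02 and 1.82), while GATA2 (0.352 and 3.63) and TFAP2A (0.691 and 3.82) had higher means in naive H9 cells, and 2 of 4 tested markers were higher and 2 lower. Their part in the result was not tested.

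The genes around TAP1 on chromosome 6 showed the same contrast between lines. TAP2, the other subunit of the peptide transporter, and PSMB8 and PSMB9, subunits of the immunoproteasome that cuts peptides for class I, lie beside it. PSMB9 is described as a neighbour chosen after its values were seen. In naive H1 controls TAP2 had 2, 1 and 0 counts, PSMB8 0, 0 and 3, and PSMB9 0, 0 and 0, beside 12, 13 and 20 for TAP1. Primed H1 controls had 133, 82 and 121 counts of TAP2, 227, 104 and 141 of PSMB8 and 35, 9 and 24 of PSMB9, beside 303, 147 and 266 of TAP1. With counts summed over the 3 libraries and TMM-scaled library totals, the ratio of primed to naive level was 113 for TAP2 (95% exact interval 38.3 to 549.9) and 159 for PSMB8 (53.9 to 771), intervals that cover counting error only. On the same summed scale PSMB9 was at least 22.8-fold lower in naive H1 controls, taking 3 counts over the group, or 0.0928 CPM, as the limit that a count of 0 allows. PSMB9 was also at 0 counts in all 3 libraries with ZNF8 knockdown.

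In naive H9 cells all 4 genes were present, with 58, 52 and 52 counts of TAP2, 134, 88 and 84 of PSMB8, 113, 94 and 108 of TAP1 and 15, 14 and 7 of PSMB9. TAP2 (−0.85, edgeR adjusted p = 0.00172), PSMB8 (−0.89, edgeR adjusted p = 0.000112) and PSMB9 (−1.36, edgeR adjusted p = 0.00192) were lower there than in primed H9 cells on the log2 scale. The differences between the lines passed the test for TAP2 (edgeR adjusted p = 9.09e-11), PSMB8 (edgeR adjusted p = 1.04e-11) and PSMB9 (edgeR adjusted p = 0.00015). Their fitted sizes depend on the prior count, since the naive H1 libraries are near 0. TAPBP on the same chromosome arm and B2M on chromosome 15 fell in naive H1 controls as well (−1.37 and −2.07), where 36.1% of all tested genes were lower.

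**Figure D3:**
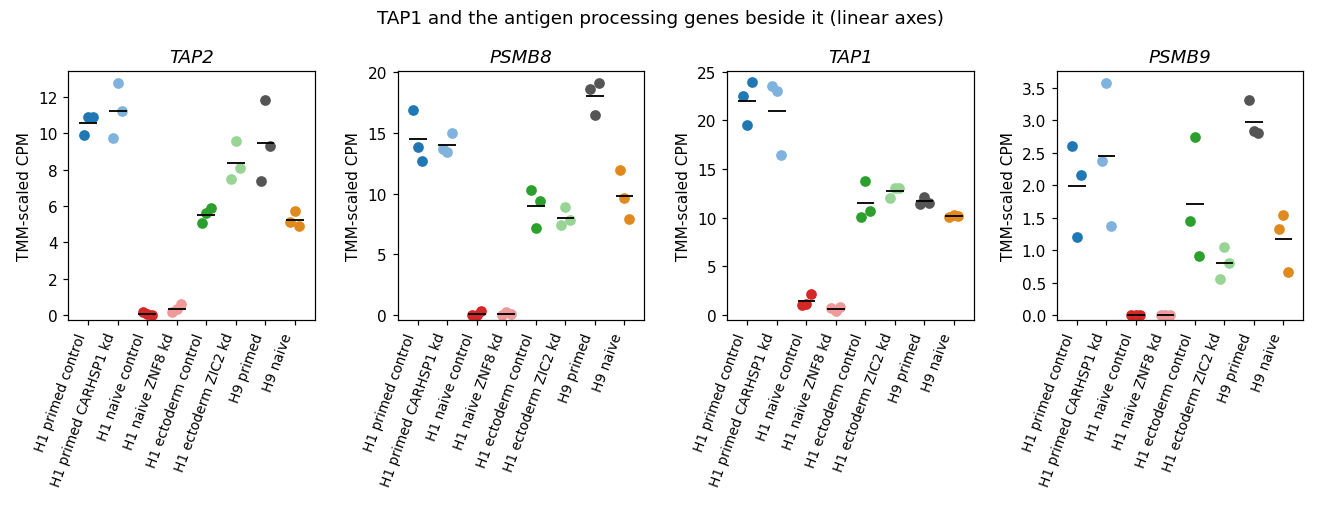
Level of TAP1 and its neighbours TAP2, PSMB8 and PSMB9 in every library (points, CPM, linear axes) by group, with the mean of 3 as a black bar. All 4 genes are lowest in naive H1 cells, with PSMB9 at 0 counts in all 6 libraries, and present in naive H9 cells.

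Among other genes of the pathway, 7 of 13 tested processing and loading genes were higher and 5 lower in naive H1 controls. Of all tested genes 35.0% were higher and 36.1% lower there, shares that also apply to the lists that follow. CANX (0.99) and CALR (0.79), chaperones of the heavy chain, were among the higher on the log2 scale. The list also holds TAP2, PSMB8 and PSMB9, described above. In H9, where 25.4% of all tested genes were higher and 26.1% lower, 5 of 13 were higher and 4 lower. CALR (0.63) and the loading complex member PDIA3 (0.59) were among the higher. Of 19 tested interferon-stimulated genes, 8 were higher and 8 lower in naive H1 controls, and 9 of 18 were higher and 3 lower in H9. BST2, the virus tether tetherin, was at 268 CPM in naive and 12.5 CPM in primed H1 controls (log2 4.42) and at 402 and 171 CPM in H9 (1.23). IFI16, a nuclear DNA sensor, rose in both lines (5.69 in H1 and 2.87 in H9). UBE2L6, the conjugating enzyme for ISG15, was at 5.25 CPM in naive and 49.6 CPM in primed H1 controls. Of 16 interferon receptor and signalling genes, 7 were higher and 6 lower in naive H1 controls and 5 higher and 2 lower in H9. STAT3, a signal transducer of cytokine receptors, was higher in naive cells of both lines (1.34 in H1 and 1.08 in H9).

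**Figure D4:**
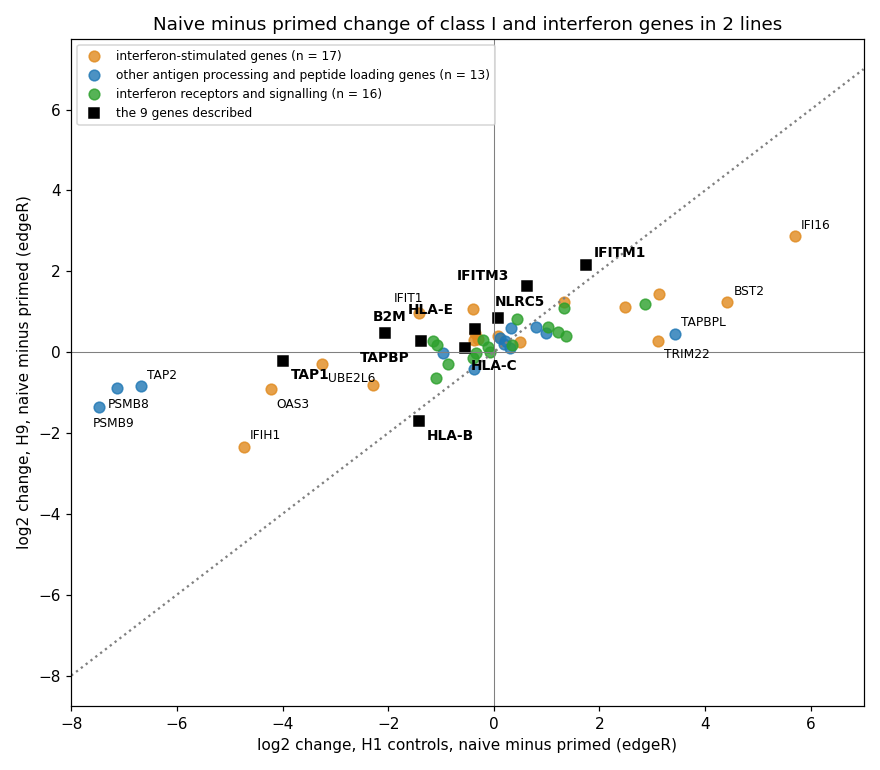
Change between naive and primed cells in H9 against that in H1 controls (log2, edgeR) for the 9 members, 17 interferon-stimulated genes, 13 other processing and loading genes and 16 receptor and signalling genes tested in both lines; the dotted line marks equal change, and fitted changes of genes near 0 counts, such as PSMB9, depend on the prior count. TAP1, B2M and TAPBP lie far from equal change, while IFITM1, at 1.74 in H1 and 2.17 in H9, lies near it.

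Day 2 ectoderm controls were next compared with primed H1 controls, the same 3 primed libraries as above. All 9 members had a lower mean in ectoderm and 8 passed the test, none higher, where 62.8% of 15409 tested genes passed (30.7% higher and 32.1% lower). The member median was −0.94, against 0.00 for all genes. HLA-B fell most of the heavy chains (−1.64 ± 0.11, edgeR adjusted p = 3.5e-13), from 41.3, 45.4 and 43.4 CPM to 14.5, 13.9 and 13.6 CPM. HLA-C fell by 0.93 ± 0.07 (edgeR adjusted p = 1.04e-12) and HLA-E by 0.59 ± 0.10 (edgeR adjusted p = 1.54e-05). B2M was the member that missed the threshold (−0.12 ± 0.07, edgeR adjusted p = 0.138).

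TAP1 fell by 0.94 ± 0.15 (edgeR adjusted p = 2.96e-06) and TAPBP by 0.58 ± 0.10 (edgeR adjusted p = 7.38e-06) in ectoderm. NLRC5 fell by 1.41 ± 0.50 (edgeR adjusted p = 0.0162), from 2.38, 2.53 and 1.71 CPM to 0.145, 0.785 and 1.33 CPM. This NLRC5 call was lost with DESeq2 (DESeq2 adjusted p = 0.0563) and after removal of GC and length trends (edgeR adjusted p = 0.105). It was also lost without any 1 of 4 libraries, the first or second of either group (edgeR adjusted p = 0.0553 to 0.0813). IFITM1 fell by 1.24 ± 0.07 (edgeR adjusted p = 2.23e-15) and IFITM3 by 1.35 ± 0.06 (edgeR adjusted p = 2.93e-17), with no overlap between the groups. IFITM2 fell as well (−1.53, edgeR adjusted p = 9.03e-18).

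Changes in this comparison followed GC content across genes (Spearman −0.35, a description over genes, which are not independent), and HLA-C, at 62.7% GC, has more GC than 93.2% of tested genes. With GC and length trends removed, HLA-C fell by 0.19 (edgeR adjusted p = 0.0149), HLA-E by 0.37 and TAP1 by 0.58. TAPBP then missed the threshold (−0.22, edgeR adjusted p = 0.0523) and B2M passed it (−0.27, edgeR adjusted p = 0.0013). The 7 neural ectoderm markers rose here (6 of 6 tested higher) while the members fell, and their part was not tested. Of the listed class I promoter regulators 6 of 9 tested were higher and none lower, led by NFYB, a subunit of the factor that binds CCAAT (1.01). SOCS1, an inhibitor of interferon signalling, fell from 10.4 to 0.344 CPM (−4.87). Of 19 interferon-stimulated genes 7 were higher, among them BST2 at 60.2 against 12.8 CPM, and 6 lower, among them ISG15 (−2.62).

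Each knockdown was then compared with its own nontargeting control. CARHSP1 encodes a cold shock domain protein that binds RNA. Its knockdown in primed H1 cells lowered 3 members and raised none, where 20.2% of 15642 tested genes passed (10.3% higher and 9.87% lower), with a member median of −0.19 against 0.00 for all genes. IFITM1 went from 234, 228 and 253 CPM in controls to 169, 158 and 146 CPM (log2 −0.60 ± 0.05, edgeR adjusted p = 6.46e-11). IFITM3 went from 268, 260 and 267 CPM to 181, 161 and 172 CPM (−0.63 ± 0.05, edgeR adjusted p = 1.72e-12). B2M went from 91.9, 91.1 and 90.3 CPM to 68.1, 73.4 and 70.6 CPM (−0.37 ± 0.06, edgeR adjusted p = 5.48e-05). In each of these genes the 3 knockdown libraries lay below the 3 controls. Changes in this comparison followed GC content as well (Spearman −0.33 over genes). With GC and length trends removed, IFITM1 (−0.55), IFITM3 (−0.53) and B2M (−0.42) still passed, while the uncalled changes of HLA-B, HLA-C and TAP1 turned in sign.

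The heavy chains did not pass with CARHSP1 knockdown: HLA-B changed by −0.08 ± 0.09 (edgeR adjusted p = 0.548), HLA-C by −0.06 ± 0.06 (edgeR adjusted p = 0.558) and HLA-E by −0.16 ± 0.09 (edgeR adjusted p = 0.212). TAP1 changed by −0.09 ± 0.13 (edgeR adjusted p = 0.662), TAPBP by −0.19 ± 0.08 (edgeR adjusted p = 0.0759, and 0.0231 without the first knockdown library) and NLRC5 by −0.28 ± 0.35 (edgeR adjusted p = 0.64). IFITM2 fell by 0.31 (edgeR adjusted p = 5.12e-05). Of 19 other interferon-stimulated genes tested 1 was higher and 2 lower: TRIM22, an antiviral ubiquitin ligase, was at 33.1 ± 3.70 CPM against 16.2 ± 1.10 in controls (1.02, edgeR adjusted p = 8.17e-09), and LGALS3BP (−0.34, edgeR adjusted p = 0.0132) and BST2 (−0.44, edgeR adjusted p = 0.049) fell. Of 12 processing genes 3 were higher, led by PDIA3 (0.31). Markers moved with this knockdown too: 4 of 5 tested naive-state markers of a list of 8 were lower (25.7 to 29.3 against 34.9 to 40.0 CPM in sum), 3 of 5 tested fibroblast markers of a list of 9 (593 to 628 against 688 to 704 CPM) and 3 of 5 pluripotent markers (3694 to 3925 against 3999.8 to 4146 CPM, none at 0). Of the naive-state list 2 were at 0 with knockdown and 1 in controls, and of the fibroblast list 2 in each group. Their part in the members' changes was not tested.

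ZNF8 is a zinc finger protein. With its knockdown in naive H1 cells 1 member was higher and 3 lower, where 24.2% of 15323 tested genes passed (11.9% higher and 12.3% lower), with a member median of −0.06 against −0.01 for all genes. These naive controls are the libraries used for the naive state above. HLA-E went from 41.6, 33.4 and 40.6 CPM to 28.8, 33.6 and 25.4 CPM (−0.41 ± 0.10, edgeR adjusted p = 0.003). On these levels, scaled over all 24 libraries, 1 knockdown library lay inside the control range, while on the scaling of the test the groups were just apart. B2M, already low in these cells, went from 22.7, 20.9 and 22.5 CPM to 15.5, 14.7 and 17.5 CPM (−0.49 ± 0.12, edgeR adjusted p = 0.0027), with the groups apart. HLA-B (−0.06 ± 0.14) and HLA-C (0.11 ± 0.06) did not pass.

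TAP1 rested on 29 counts with ZNF8 knockdown and 45 in controls and changed by −1.10 ± 0.49 (edgeR adjusted p = 0.0989). It passed only when all groups were fitted together (edgeR adjusted p = 0.0416). TAPBP changed by 0.29 ± 0.11 (edgeR adjusted p = 0.0503), and its call turned with several settings, as with DESeq2's size factors (edgeR adjusted p = 0.0495) or without the third control library (0.0221). The IFITM genes moved in opposite directions. IFITM1 fell by 0.24 ± 0.05 (edgeR adjusted p = 0.000382) and IFITM3 rose from 393, 422 and 432 CPM to 498, 575 and 478 CPM (0.30 ± 0.05, edgeR adjusted p = 4.44e-05). Counts of IFITM1 per count of IFITM3 thus went from 1.99, 2.02 and 1.82 to 1.38, 1.30 and 1.32.

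Markers moved with ZNF8 knockdown as well. The 8 trophoblast and amnion markers summed to 38.2 to 43.3 CPM against 107 to 114 CPM in controls, with 7 of 8 lower and none at 0 in either group. The 8 naive-state markers summed to 250 against 355 CPM, with 6 of 8 lower. Of 9 fibroblast markers 4 of 4 tested were higher (401 to 438 against 309 to 321 CPM in sum, with 3 and 0 of the list at 0). COL1A2 carried most of that sum (398 against 300 CPM). THY1 (0.0171 against 0.506 CPM) and PDGFRB (0.180 against 0.770 CPM), too low to be tested, had lower means with knockdown. The part of these marker lists in the members' changes was not tested. Of 15 interferon-stimulated genes tested 1 was higher and 5 lower: IFI16 went from 83.0 to 39.0 CPM (−1.09, edgeR adjusted p = 1.56e-14), BST2 from 258 to 196 CPM (−0.40, edgeR adjusted p = 2.11e-07) and IFI6, a mitochondrial antiviral protein, from 10.1 to 3.97 CPM (−1.36, edgeR adjusted p = 2.38e-06), while ISG15 rose (0.73, edgeR adjusted p = 0.00134).

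ZIC2 is a zinc finger transcription factor of the developing neural ectoderm. With its knockdown in day 2 ectoderm 3 members were higher and 1 lower, where 28.1% of 15013 tested genes passed (15.3% higher and 12.8% lower), with a member median of 0.23 against −0.01 for all genes. The ectoderm controls are those compared with primed cells above. HLA-B was 2.43-fold higher, at 36.6, 34.5 and 30.8 CPM against 14.5, 13.9 and 13.6 CPM (log2 1.28 ± 0.13, edgeR adjusted p = 1.08e-07), with the groups far apart. Its share of the counts of the 3 heavy chain genes was 19.5% ± 0.531 against 11.2% ± 0.816 in controls (SD, n = 3). HLA-C was at 125, 108 and 99.4 CPM against 75.4, 79.0 and 81.7 CPM (0.49 ± 0.08, edgeR adjusted p = 0.000132). Changes in this comparison followed GC content (Spearman 0.33 over genes), and with GC and length trends removed the HLA-C change was 0.11 (edgeR adjusted p = 0.297).

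HLA-E (−0.13 ± 0.12, edgeR adjusted p = 0.474) and B2M (−0.04 ± 0.08, edgeR adjusted p = 0.719) did not pass with ZIC2 knockdown, nor did TAP1 (0.13 ± 0.17), TAPBP (0.23 ± 0.11, edgeR adjusted p = 0.132, and 0.0143 without the first control library) or NLRC5 (0.36 ± 0.60). IFITM3 rose from 110, 110 and 95.5 CPM to 148, 126 and 139 CPM (0.39 ± 0.08, edgeR adjusted p = 0.000607). IFITM1 fell from 89.5, 111 and 103 CPM to 81.7, 78.8 and 84.0 CPM (−0.32 ± 0.08, edgeR adjusted p = 0.0047), a call lost without the second control library (edgeR adjusted p = 0.0589). IFITM2 rose by 0.35 (edgeR adjusted p = 0.0072). Counts of IFITM1 per count of IFITM3 were 0.551, 0.626 and 0.602 against 0.815, 1.02 and 1.08 in controls, so these 2 genes parted in the direction seen with ZNF8 knockdown.

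Of 17 other interferon-stimulated genes tested 8 were higher with ZIC2 knockdown and none lower, with a list median of 0.45 against −0.01 for all genes. TRIM22 was at 134 against 60.1 CPM (1.15, edgeR adjusted p = 3.9e-10), DTX3L at 15.7 against 7.47 CPM (1.10, edgeR adjusted p = 0.000493), the dynamin-like antiviral MX1 at 13.2 against 6.34 CPM (1.02, edgeR adjusted p = 0.00103) and the RNA sensor RIGI at 35.4 against 25.7 CPM (0.45, edgeR adjusted p = 0.00763). Of 12 other processing genes 1 was higher, TAP2 at 8.53 against 5.63 CPM (0.59, edgeR adjusted p = 0.0489), and 1 lower, PSME1 (−0.30). Of 9 class I promoter regulators 3 were lower and none higher, namely CREB1 (−0.45), NFYB (−0.38) and NFYA (−0.25). The 7 neural ectoderm markers summed to 732 to 815 CPM against 1040 to 1215 CPM in controls, with 3 of 6 tested lower. Of 9 fibroblast markers 3 of 4 tested were higher (297 to 320 against 193 to 204 CPM in sum, with 4 and 5 of the list at 0), and of 8 trophoblast and amnion markers 2 of 3 tested were higher (14.6 to 21.2 against 8.97 to 13.4 CPM, with 1 and 4 at 0). The part of these markers in the members' changes was not tested.

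**Figure D5:**
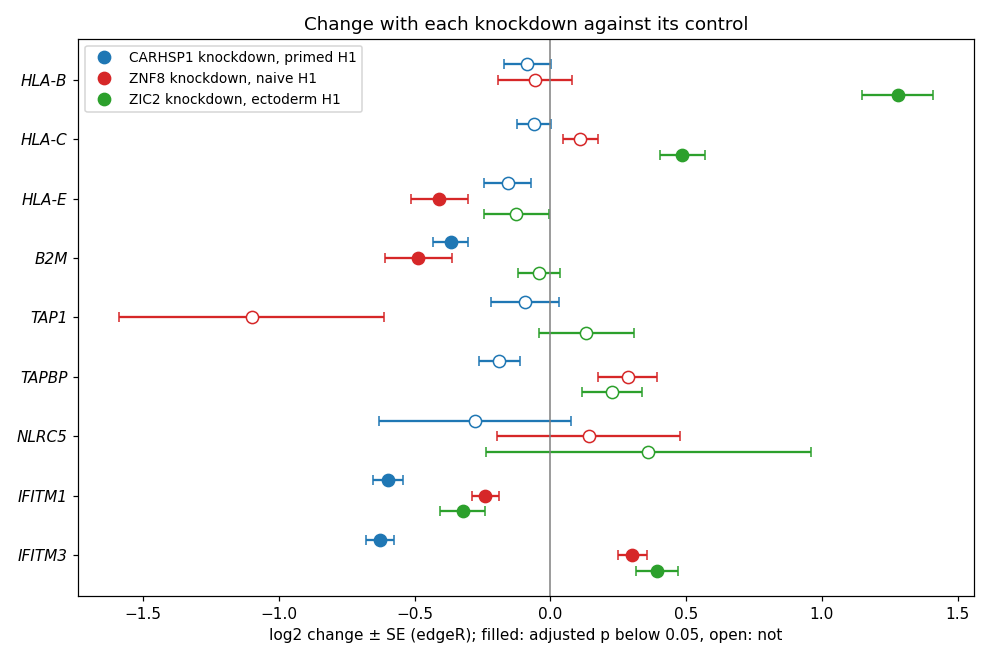
Change of each member with knockdown of ZIC2 (ectoderm), ZNF8 (naive) and CARHSP1 (primed), each against its control (log2 fold change from edgeR, error bars ± 1 SE; filled points passed the test, open ones did not). HLA-B rises with ZIC2 knockdown alone of the 3, and IFITM3 falls with CARHSP1 knockdown and rises with the other two.

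The knockdown effects were compared by interaction tests over the 18 H1 libraries. Each knockdown was made in its own cell state, so the target and the state cannot be told apart in these differences. CARHSP1 minus ZNF8 passed for 3 of 9 members, where 17.3% of 17390 genes passed: IFITM3 (−0.94 ± 0.09, edgeR adjusted p = 2.27e-10), TAPBP (−0.48 ± 0.14, edgeR adjusted p = 0.0137) and IFITM1 (−0.37 ± 0.09, edgeR adjusted p = 0.00318). CARHSP1 minus ZIC2 passed for 6 of 9, where 27.5% passed: HLA-B (−1.36 ± 0.16, edgeR adjusted p = 2.22e-08), IFITM3 (−1.02 ± 0.09, edgeR adjusted p = 4.21e-11), HLA-C (−0.54), TAPBP (−0.42), B2M (−0.32) and IFITM1 (−0.27). ZNF8 minus ZIC2 passed for 4 of 9, where 17.9% passed: HLA-B (−1.33 ± 0.18, edgeR adjusted p = 2.25e-07), TAP1 (−1.20 ± 0.42, edgeR adjusted p = 0.0397), B2M (−0.43) and HLA-C (−0.36). With GC and length trends removed this count was 2 of 9, since HLA-C (−0.02, edgeR adjusted p = 0.909) and TAP1 (edgeR adjusted p = 0.0891) no longer passed, and the TAP1 call was also lost without any 1 of 7 libraries (edgeR adjusted p = 0.0538 to 0.238). Removal of the trends likewise ended the TAPBP difference in CARHSP1 minus ZNF8 (edgeR adjusted p = 0.0591) and the HLA-C and TAPBP differences in CARHSP1 minus ZIC2 (−0.01 and −0.10). In CARHSP1 minus ZIC2 the B2M call was also lost without the second ectoderm control library (edgeR adjusted p = 0.056), the TAPBP call without any 1 of 4 libraries (0.0516 to 0.0752) and the IFITM1 call without any 1 of 5 (0.0557 to 0.131). The rise of HLA-B thus differed from its change in both other knockdowns. For IFITM1 (0.10 ± 0.10, edgeR adjusted p = 0.531) and IFITM3 (−0.08 ± 0.09, edgeR adjusted p = 0.612) no difference between ZNF8 and ZIC2 knockdown passed.

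As a description over the 18 H1 libraries, which share groups and controls, pairs of members were set side by side (Pearson r of log2(CPM + 1), no test). IFITM1 and IFITM3 had r = 0.955, B2M and TAP1 0.960, TAP1 and TAPBP 0.923 and HLA-B and HLA-C 0.814, while HLA-C and B2M, a heavy chain and its light chain, had only 0.118. B2M and IFITM1 ran opposite to each other (−0.895). NLRC5 had its highest r with IFITM3 (0.764) and a negative r with B2M (−0.558). Among 11751 genes searched, the most like B2M were NBEA (0.996), ATCAY (0.994) and AHCY (0.993), and among the most like TAP1 were DHX33 (0.990) and PDGFRB (0.989). TRIM14 (0.996), SGK1 (0.990) and FN1 (0.990) were the most like IFITM1, and NAV2 (0.985), PSD (0.985) and ANXA11 (0.984) the most like IFITM3. For HLA-B these were TTLL12 (0.972), LNCPRESS1 (0.964) and RANGAP1 (0.964), for HLA-C BOP1 (0.977), MYBBP1A (0.975) and COASY (0.975), and for HLA-E ST3GAL1 (0.907), RIDA (0.885) and GNL1 (0.879). TAPBP was most like AEBP1 (0.974), URB2 (0.970) and LIMK1 (0.969), and NLRC5 most like POLR2I (0.933), TMEM102 (0.911) and MCRIP2 (0.907).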

How the data were processed

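Reads were aligned with HISAT2 to GRCh38, per the submitters' processing notes, and the kit was one for stranded mRNA, per the labels' protocols. The authors deposited whole-number counts per gene without normalization, in 1 table for 18 H1 libraries and 1 for 6 H9 libraries. The counting tool, annotation release and strand setting were not given in the sources used here. In all, 27 columns that match no sample described here were not used. No replicate pair agreed within sampling noise (chi-square per degree of freedom 2.44 to 9.16).

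Each comparison was fitted on its 2 groups with edgeR 4.0.16 in R 4.3.3 (filterByExpr with a minimum count of 10, TMM, quasi-likelihood F test, 2-sided). Benjamini-Hochberg adjustment ran over all genes tested, with a threshold of 0.05. The SE of a log2 change or difference is its absolute value divided by the square root of its F statistic. It is not a standard error reported by the fit. Interactions used 6 H1 groups, or 4 groups over both lines. Alternatives were DESeq2 1.42.0, its size factors, upper quartile scaling, no filter, a mean of at least 1 CPM, all groups in 1 fit, a replicate block, GC and length trends removed (lowess span 0.3, on the authors' deposited gene lengths) and leaving out each library. Named genes were the members, the knockdown targets, up to 4 genes of smallest adjusted p per list and comparison, and 3 genes of highest correlation per member, among genes averaging 5 CPM or more, on log2(CPM + 1). The members and lists were chosen with earlier results of these data known. Results for some named genes are not reported here.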

Additional observations from a re-analysis of the deposited data

Results flagged for a closer look

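Each value here is a difference between log2 changes that passed the interaction test (edgeR, adjusted over all genes). For knockdown of CARHSP1 in primed cells minus knockdown of ZNF8 in naive cells, IFITM3 differed by −0.94, TAPBP by −0.48 and IFITM1 by −0.37. The TAPBP difference missed the threshold with GC and length trends removed (edgeR adjusted p = 0.0591) and without the first naive control library (0.0614). For CARHSP1 minus ZIC2 in ectoderm, HLA-B differed by −1.36, IFITM3 by −1.02, HLA-C by −0.54, TAPBP by −0.42, B2M by −0.32 and IFITM1 by −0.27. With GC and length trends removed the HLA-C difference was −0.01 (edgeR adjusted p = 0.961) and the TAPBP difference −0.10 (0.652). The B2M difference missed the threshold without the second ectoderm control library (edgeR adjusted p = 0.056), the TAPBP difference without any 1 of 4 libraries (0.0516 to 0.0752) and the IFITM1 difference without any 1 of 5 (0.0557 to 0.131).

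For ZNF8 minus ZIC2, HLA-B differed by −1.33, TAP1 by −1.20, B2M by −0.43 and HLA-C by −0.36. The HLA-C difference was −0.02 with GC and length trends removed (edgeR adjusted p = 0.909) and missed the threshold without the third ZNF8 knockdown library (0.0578) or the first ZIC2 knockdown library (0.0754). The TAP1 difference, with 29 and 45 counts in the naive groups, missed the threshold with the trends removed (edgeR adjusted p = 0.0891) and without any 1 of 7 libraries (0.0538 to 0.238).

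For the naive minus primed change in H9 minus that in H1 controls, TAP1 differed by 3.77, B2M by 2.52, TAPBP by 1.64, IFITM3 by 0.98, HLA-E by 0.91, HLA-C by 0.63 and IFITM1 by 0.42.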

How the results depend on the processing

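The number of members called kept within 1.5 times its value in every comparison and alternative run, except that the ZNF8 minus ZIC2 difference was called for 2 members in place of 4 with GC and length trends removed; the cause was not tested. Removing these trends also turned the sign of changes that had missed the threshold: HLA-B (0.0415), HLA-C (0.118) and TAP1 (0.0285) with CARHSP1 knockdown, TAP1 with ZIC2 knockdown (−0.0679), HLA-C between H9 states (−0.0499), HLA-B (0.0703) and HLA-C (0.0107) in CARHSP1 minus ZNF8, HLA-E (0.101) and TAP1 (0.0905) in CARHSP1 minus ZIC2, and IFITM3 (0.0224) in ZNF8 minus ZIC2; the cause was not tested. Leaving out 1 library turned signs only of uncalled changes: with CARHSP1 knockdown HLA-C ranged from −0.15 to 0.0108 and TAP1 from −0.19 to 0.0707; with ZNF8 knockdown HLA-B from −0.20 to 0.0770 and NLRC5 from −0.0731 to 0.36; with ZIC2 knockdown B2M from −0.0828 to 0.0035 and NLRC5 from −0.0176 to 1.04. In naive against primed cells HLA-C ranged from −0.0379 to 0.17 in H9 and NLRC5 from −0.11 to 0.30 in H1; in CARHSP1 minus ZNF8 HLA-B from −0.16 to 0.0934; in CARHSP1 minus ZIC2 HLA-E from −0.12 to 0.0480; and in ZNF8 minus ZIC2 NLRC5 from −0.88 to 0.17 and TAPBP from −0.0602 to 0.14. Of 3152 genes called with CARHSP1 knockdown, the count was 2096 without the second knockdown library and 2045 without the first control library. Low counts limit NLRC5 everywhere and TAP1 in naive H1 cells.

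With the replicate number as a block, 3, 4, 4, 7, 8 and 8 members were called in the CARHSP1, ZNF8, ZIC2, H9, H1 naive and ectoderm comparisons, and 3, 6, 4 and 7 in the 4 difference tests. TAPBP (edgeR adjusted p = 0.0345) and NLRC5 (0.0482) passed in H9 under the block. Correlations of same-numbered libraries ran from −0.122 to 0.148, so the number was not taken to pair samples, and every library correlated best with its own number only in the CARHSP1 comparison.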
